A study of Mus musculus with 28 samples.

Results

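The PGC-1 coactivators, the estrogen-related receptors and the nuclear regulators of mitochondrial transcription were followed in mouse heart through every probe set annotated to Ppargc1a, Ppargc1b, Esrra, Esrrb, Esrrg, Nrf1, Gabpa and Tfam. These 8 genes had 22 probe sets, of 45037 tested probe sets, whose single-symbol members named 18193 genes. Ppargc1a had 5 probe sets, Nrf1 had 4, Esrrb and Esrrg had 3 each, Esrra, Gabpa and Tfam had 2 each, and Ppargc1b had 1. Total RNA of whole frozen hearts was hybridised to 28 Affymetrix arrays, which the series design ascribes to individuals, in 4 groups of 7. The groups were del337 hearts treated with WY14643, untreated del337TR hearts, control hearts treated with WY14643 and untreated control hearts. WY14643 is an agonist of the nuclear receptor PPARalpha. The del337 animals are called a deletion strain under a series title on resistance to thyroid hormone, and the treated animals are labelled del337 where the untreated ones are labelled del337TR. The sources used here name no receptor gene, promoter, background strain, sex, age, dose or duration of treatment. In whole tissue, fewer cells of a type and less RNA per cell cannot be told apart.

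PGC-1alpha (Ppargc1a) and PGC-1beta (Ppargc1b) bind no DNA themselves but join transcription factors and raise their activity. In heart their main partners are the estrogen-related receptors, orphan nuclear receptors that bind the promoters of genes for fatty acid oxidation, the citric acid cycle and the respiratory chain, and PPARalpha. PGC-1 also acts through NRF1 and through GABP, whose DNA-binding subunit is Gabpa, and both of these factors are known to act on the promoter of human TFAM, whose product packages mitochondrial DNA and starts its transcription.

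Sequences before the start sites were read from the RefSeq promoter table (GRCm38.p6). The search used 12 windows of 300 bases for 7 of the 8 genes. Windows of Ppargc1b were not part of the search, so nothing is said of its promoter. Ppargc1a is shown because 4 of its probe sets had the lowest p values between the treated groups, and its window held none of the motifs searched. The stretch is the 250 bases before the listed start site on the minus strand at chr5:51567726-51567975, inside the annotated span of the gene.
Ppargc1a: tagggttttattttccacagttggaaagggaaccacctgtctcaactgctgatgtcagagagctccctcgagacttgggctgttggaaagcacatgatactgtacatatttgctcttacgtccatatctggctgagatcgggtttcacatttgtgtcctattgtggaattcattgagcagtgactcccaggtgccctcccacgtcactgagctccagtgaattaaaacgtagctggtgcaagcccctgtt

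The next 3 stretches of 30 bases are shown because they hold letters of binding motifs that belong to other members of the set. Capitals mark the match to GCATGCG, the core of the NRF1 motif, in Esrra and Gabpa, and to CCGGAAGT, the GABP motif, in Tfam. They lie at chr19:6921825-6921854 (minus strand), chr16:84835094-84835123 (plus strand) and chr10:71238073-71238102 (minus strand).
Esrra: accccctgttttGCATGCGcaggccggccc
Gabpa: ctcttggagacactgcactgtaCGCATGCG
Tfam: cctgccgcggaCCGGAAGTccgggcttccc

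All motifs were searched on both strands, and GCATGCG is nearly its own reverse complement, so that in Gabpa the matches on the 2 strands overlap. The match began 34 bases before the start site in Esrra, 8 bases before it in Gabpa and 47 bases before it in Tfam. The NRF1 core was present in 3 of the 12 windows, each of a different gene of the 7, with Esrrg as the other one. It was present in 3.58% of all 32851 promoter windows of the same length. This shorter motif was added after the sequences were seen. The GABP motif was present in 3.89% of all windows and in 1 of the 12 member windows, that of Tfam. The full NRF1 motif, which adds GC before and C after this core and was present in 0.971% of all windows, and the estrogen-related receptor motif TNAAGGTCA, present in 1.28%, were not in these letters in any of the 12 windows. A match of letters is a description and does not show binding.

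The arrays were of similar quality, and the tissue label was checked against markers. The median signal of an array was between 60.1 and 77.8, the 7 cardiomyocyte markers together gave at least 78011.5 signal units on every array, and the 3 brown adipocyte markers differed among themselves. Ucp1, which defines brown fat, had a median of 12.5, and Elovl3 had one of 65.45, above the array median on 10 of 28 arrays, but Cidea, a lipid droplet protein, had one of 1170.5 and was above the array median on all 28. Their summed signal ran from 1066.6 to 1452.7 in treated del337 hearts, 1024 to 1339.7 in untreated del337TR hearts, 1075.6 to 1985.8 in treated control hearts and 1010 to 1565.8 in untreated control hearts, and its part in the results was not tested. In the same order of groups, the summed signal of 7 fibroblast markers had medians of 19577.1, 20488.4, 17592.2 and 17819.3, higher in the deletion strain with overlapping ranges. That of the 4 measured white adipocyte markers had medians of 151.0, 250.5, 192.3 and 180.6. The part of these sums in the results was not tested either. At least 2 measures differed between arrays in ways that touch the results. The ratio of 3 prime to 5 prime signal of the actin control probe sets, which grows as RNA is degraded, averaged 1.23 ± 0.09 in treated del337 hearts, 1.29 ± 0.08 in untreated del337TR hearts, 1.39 ± 0.21 in treated control hearts and 1.25 ± 0.12 in untreated control hearts (SD, n = 7 each). The treated control mean included 1 array at 1.82. The same ratio of the Gapdh control probe sets did not show this rise. It averaged 0.80 ± 0.02, 0.83 ± 0.03, 0.81 ± 0.01 and 0.81 ± 0.01 in the same order of groups. The summed signal of all 4 atrial markers, Myl4, Myl7, Sln and Nppa, had medians of 21742.7, 19781.1, 8456.2 and 12384.3 in the same order of groups, and its ranges overlapped widely: 9224.9 to 51569.9, 12753.0 to 50282.3, 3593.3 to 31478.0 and 9475.2 to 34811.6. Myl7 and Sln each lay above the array median on 24 of 28 arrays and were as low as 4.8 and 4.3. The atrial score, which is the mean log2 signal of Myl4, Myl7 and Sln without Nppa, was low on several arrays. It was 3.75 and 4.92 in untreated control replicates 1 and 3, 4.87 in treated control replicate 3 and 4.47 in treated del337 replicate 4. All other arrays had scores between 7.72 and 13.4. By Xist and Eif2s3y, 1 of 7 treated del337 animals, 4 of 7 untreated del337TR animals, 3 of 7 treated controls and 2 of 7 untreated controls were female.

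Ppargc1a had the lowest p values of the set between the treated groups, and each of its 5 probe sets had its lowest mean signal in treated control hearts. The brightest probe set of Esrra had lower means in the deletion strain. Ppargc1b had lower mean signals under WY14643 in both strains. The brightest probe sets of Esrrg, Gabpa and Tfam varied little, and none of the 22 probe sets passed an adjusted p of 0.05 in any comparison.

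The counts per comparison set the scale. No filter on low signals was used, so all 22 probe sets were tested each time. With limma and Benjamini-Hochberg adjustment over all 45037 probe sets, 0 member probe sets were called between untreated del337TR and untreated control hearts, where 0.00222% of all probe sets were called, and 0 had an unadjusted p under 0.05, against 4.01% of all. For WY14643 in control hearts 0 were called (0% of all probe sets) and 1 had an unadjusted p under 0.05, against 6.75% of all. For WY14643 in del337 hearts 0 were called (0% of all) and 2 had an unadjusted p under 0.05, against 5.78% of all. Between treated del337 and treated control hearts 0 were called (0% of all) and 5 of 22 had an unadjusted p under 0.05, which is 22.7% against 8.86% of all probe sets. Of these 5, 4 were probe sets of Ppargc1a with a difference above 0, a call that 5.25% of all probe sets shared, and 1 was of Esrra with a difference below 0, shared by 3.61%. The probe sets of Ppargc1a read the same gene and are not separate results. For the difference of the WY14643 effects, del337 minus control, 0 were called (0% of all) and 0 had an unadjusted p under 0.05, against 4.9% of all, with a lowest adjusted p of 0.956.

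Averaged over both treatments, del337 against control gave 0 called member probe sets (0% of all) and 6 with an unadjusted p under 0.05, against 7.66% of all. Of these 6, 5 were the probe sets of Ppargc1a, with differences above 0, and 1 was of Esrra, with a difference below 0. They thus stand for only 2 genes. Averaged over both strains, WY14643 against no treatment gave 0 called (0% of all) and 4 with an unadjusted p under 0.05, against 7.5% of all. These averages and the simple comparisons share arrays and are not separate evidence. Most of these counts depended on single arrays. For strain over both treatments it was 3 in place of 6 without any 1 of untreated control replicate 7, untreated del337TR replicates 6 and 7, treated control replicates 4, 6 and 7 and treated del337 replicates 1 and 5. For WY14643 in control hearts it was 0 without treated control replicate 4 or 7 or untreated control replicate 5, and 4 without untreated control replicate 7. For WY14643 in del337 hearts it was 1 in place of 2 without any 1 of treated del337 replicates 3, 5, 6 and 7 and untreated del337TR replicate 6. Between the treated groups it was 1 in place of 5 without treated control replicate 4 or without treated del337 replicate 5, 2 without treated del337 replicate 1 and with the actin ratio as a covariate, and 3 without treated control replicate 6. In each of the 4 simple comparisons the groups overlapped for all 22 probe sets, while 0 of the 22 were fully separate. Among all probe sets 0.0688% were separate between untreated del337TR and control hearts, 0.0866% for WY14643 in control hearts, 0.0733% for WY14643 in del337 hearts and 0.107% between treated del337 and control hearts.

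**Figure D1:**
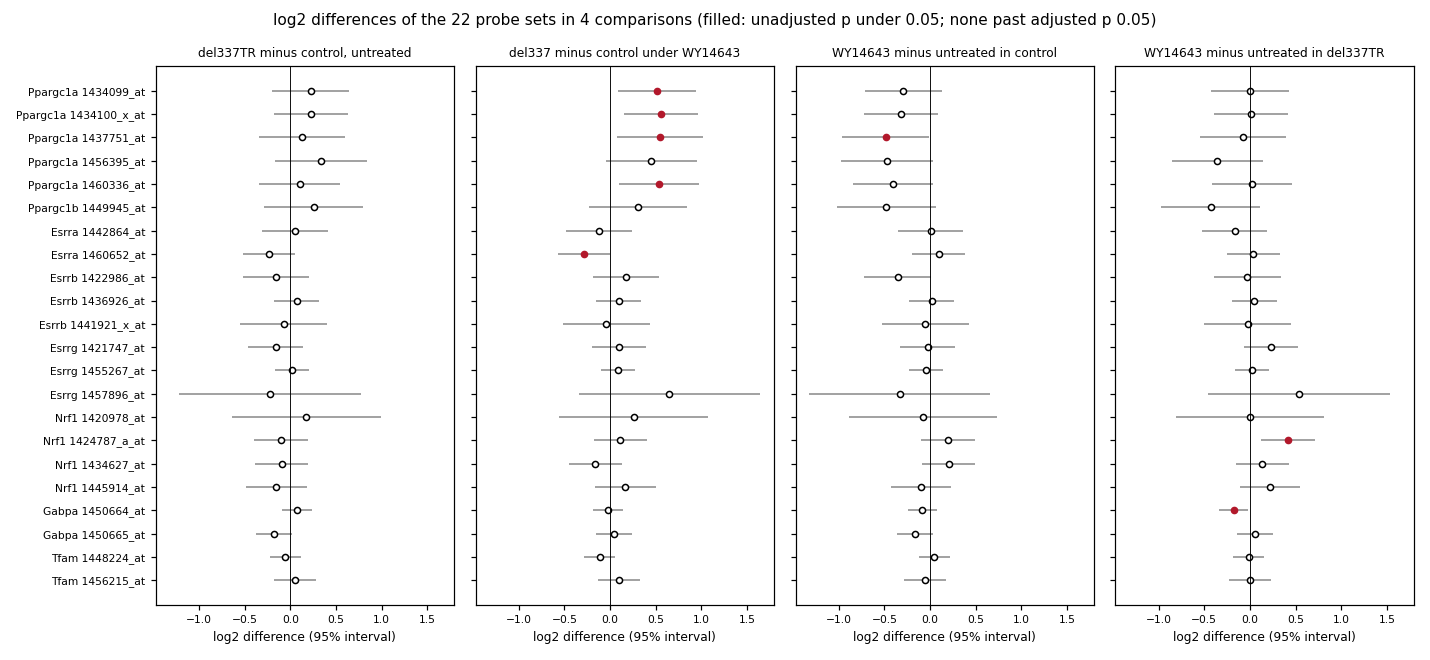
log2 differences (horizontal axis) of the 22 probe sets (rows) in the 4 simple comparisons, as limma's estimates with 95% confidence intervals over 7 arrays a group. Filled points have an unadjusted p under 0.05, and none passed an adjusted p of 0.05; 4 of the 5 filled points between treated del337 and treated control hearts belong to Ppargc1a.

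The brightest probe set of Ppargc1a, 1437751_at, gave 1404.6 as the lowest, 1696.2 as the median and 2541.2 as the highest signal in treated del337 hearts. Untreated del337TR hearts gave 1410.8, 1849.0 and 2537.2. Treated control hearts gave 674.1, 1242.2 and 2347.0, and untreated control hearts gave 1083.3, 1713.9 and 2478.9. The lowest signals of the series were in treated control hearts, in replicates 4 and 6 at 674.1 and 816.2, although replicate 5 of the same group reached 2347.0. All groups overlapped, and in group means the order was untreated del337TR, treated del337, untreated control and treated control hearts. The del337 groups did not pass the test against each other, nor did the control groups. Treated del337 hearts were not tested against untreated control hearts.

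Between the treated groups, the del337 mean of this probe set was 1846.7 ± 459.5 and the control mean was 1325.6 ± 546.8 (SD, n = 7 each). The log2 difference was 0.55 with a 95% interval from 0.07 to 1.02, and 7 of 7 treated del337 arrays lay above the median of treated controls. The adjusted p by limma was 0.493. Without WY14643 the difference between del337TR and control was 0.13, with an interval from -0.34 to 0.60 and an adjusted p by limma of 0.999, and 0.02 without untreated control replicate 7. The WY14643 effect was -0.49 (interval -0.96 to -0.02) in control hearts, with an adjusted p by limma of 0.736, and -0.07 (interval -0.54 to 0.40) in del337 hearts, with an adjusted p by limma of 0.991. These 2 effects were not shown to differ, since their difference was 0.41 with an interval from -0.25 to 1.08.

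The other probe sets of Ppargc1a had differences of like size between the treated groups. After removal of group means, pairs of its 5 probe sets correlated across the 28 arrays with r between 0.82 and 0.98; 1434099_at and 1434100_x_at were designed on the same source sequence. Their differences between treated del337 and treated control hearts were 0.51, 0.56, 0.45 and 0.53 for 1434099_at, 1434100_x_at, 1456395_at and 1460336_at. In the other comparisons 1456395_at stood apart. Its WY14643 effect in del337 hearts was -0.36 (interval -0.86 to 0.15), against -0.07 to 0.02 for the other 4, and its difference between untreated del337TR and untreated control hearts was 0.33 (interval -0.17 to 0.84), against 0.10 to 0.23, with 7 of 7 del337TR arrays above the control median. Its difference of the WY14643 effects was 0.12, against 0.29 to 0.43, and its mean of 992.1 ± 314.6 in treated del337 hearts was below the 1023.2 ± 344.9 of untreated control hearts (SD, n = 7 each). For 1434100_x_at, which had the lowest adjusted p of the set in this comparison, signals in treated del337 hearts ran from 912.8 through a median of 1299.7 to 2039, against 612.6, 1007.4 and 1235.2 in treated control hearts. The interval of its difference was 0.15 to 0.97 and the adjusted p by limma was 0.436, with 6 of 7 treated del337 arrays above the treated control median. Averaged over both treatments, all 5 probe sets were higher in the deletion strain, by 0.32 to 0.39, with a lowest adjusted p by limma of 0.575.

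The size of the Ppargc1a difference moved with the actin ratio. With that ratio as a covariate the difference of 1437751_at between the treated groups was 0.41 (unadjusted p 0.111), and that of 1456395_at was 0.22 in place of 0.45. With the atrial score, which leaves out Nppa, as a covariate the difference of 1437751_at was 0.55. With sex as a covariate it was 0.54. Without treated control replicate 5 it was 0.70, and without replicate 4 of the same group it was 0.40.

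**Figure D2:**
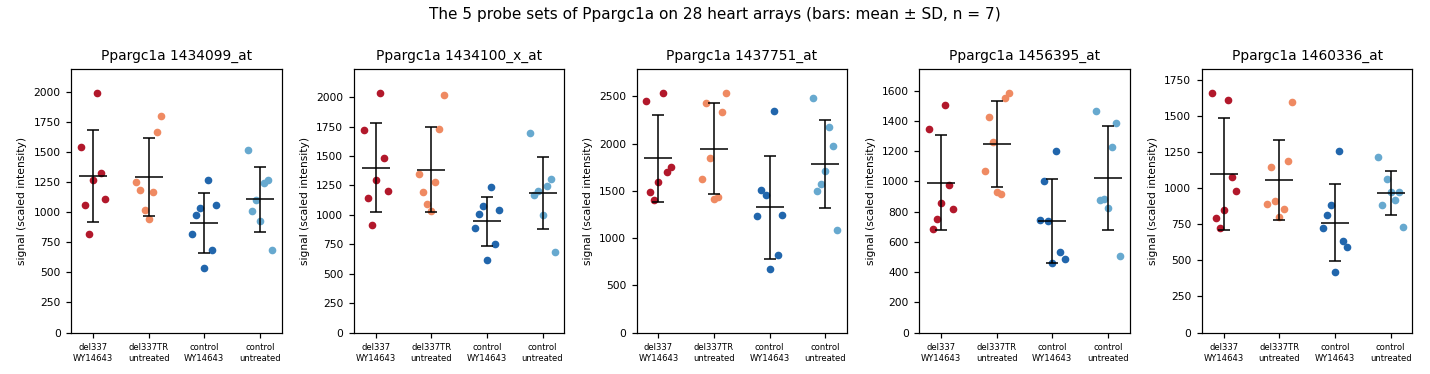
Signal (scaled intensity, vertical axis from 0) of the 5 probe sets of Ppargc1a on each of the 28 arrays, with 1 panel per probe set; bars give the mean and SD of 7 arrays. In each panel treated control hearts have the lowest mean, and all 4 groups overlap.

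Ppargc1b, the close relative of Ppargc1a, was read by 1449945_at. Its signals had a lowest value of 431.3, a median of 576.2 and a highest value of 649.0 in treated del337 hearts, against 397.0, 625.7 and 1915.6 in untreated del337TR hearts. In treated control hearts they were 349.7, 407.3 and 678.0, against 412.5, 619.5 and 1055.5 in untreated control hearts. The highest signal, 1915.6, was that of replicate 6 in the untreated del337TR group, whose SD of 526.9 was the largest of the 4 groups. The WY14643 effect was -0.43 (interval -0.97 to 0.11) in del337 hearts and -0.48 (interval -1.02 to 0.06) in control hearts; without untreated del337TR replicate 6 the effect in del337 hearts was -0.20. Averaged over both strains it was -0.46 (interval -0.84 to -0.07) with an unadjusted p of 0.0213 and an adjusted p by limma of 0.613. The strains differed by 0.31 (interval -0.24 to 0.85) under WY14643 and by 0.26 (interval -0.28 to 0.80) without it. Most of that second difference rested on untreated del337TR replicate 6, without which it was 0.02.

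Esrra encodes ERRalpha, the estrogen-related receptor best known as a partner of PGC-1alpha in muscle and heart. Its brightest probe set, 1460652_at, gave 990.4, 1042.7 and 1494.3 as lowest, median and highest signals in treated del337 hearts, and 832.2, 1121.8 and 1463.7 in untreated del337TR hearts. Treated control hearts gave 1025.8, 1502.7 and 1614.2, and untreated control hearts gave 1043.4, 1341.1 and 1567.5. No treated del337 array exceeded the median of treated controls, but the groups overlapped, since replicate 5 of the treated controls had 1025.8. The difference between treated del337 and treated control hearts was -0.29 with an interval from -0.58 to -0.0018, an unadjusted p of 0.0487 and an adjusted p by limma of 0.561. Without treatment it was -0.23 (interval -0.52 to 0.05), and averaged over both treatments it was -0.26 (interval -0.46 to -0.06) with an adjusted p by limma of 0.575. With the actin ratio as a covariate the treated difference was -0.24 (unadjusted p 0.138). WY14643 effects on Esrra were 0.04 (interval -0.25 to 0.33) in del337 hearts and 0.09 (interval -0.19 to 0.38) in control hearts. The dim probe set 1442864_at, which lay above the array median on 14 of 28 arrays, gave -0.12 (interval -0.48 to 0.24) between the treated groups. Without treated del337 replicate 2 this difference was 0.0014. Between the untreated groups 1442864_at gave 0.05 (interval -0.30 to 0.41), the opposite sign to 1460652_at. Averaged over both treatments it gave -0.03 (interval -0.29 to 0.22). After removal of group means it correlated with 1460652_at at r = 0.21.

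Esrrg encodes ERRgamma, a relative that is abundant in heart. Its brightest probe set, 1455267_at, was among the steadiest of the array, with a within-group SD of 0.15 on the log2 scale. This was percentile 5.4 among all probe sets, which were not matched for signal level. Its mean signal was 1634.8 ± 155.8 in treated del337 hearts, 1607.0 ± 116.0 in untreated del337TR hearts, 1542.4 ± 152.3 in treated control hearts and 1596.6 ± 218.0 in untreated control hearts (SD, n = 7 each). Its 4 simple differences lay between -0.04 and 0.08, the highest of them between the treated groups with an interval from -0.10 to 0.27. Of the other Esrrg probe sets, 1421747_at gave 0.23 (interval -0.07 to 0.53) for WY14643 in del337 hearts, and 1457896_at, with signals between 6.8 and 81.9, was above the array median on 1 of 28 arrays. Their within-group SDs were at percentiles 25 and 76.1. After removal of group means, pairs of the 3 Esrrg probe sets correlated at r between -0.30 and 0.22.

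Esrrb encodes ERRbeta, best known from embryonic stem cells and the inner ear. The signals of 1441921_x_at had lowest, median and highest values of 267.0, 284.2 and 405.3 in treated del337 hearts and of 140.7, 291.1 and 573.5 in untreated del337TR hearts. They were 202.5, 298.2 and 664.5 in treated control hearts and 266.5, 327.8 and 363.4 in untreated control hearts. Single arrays set the ends of these ranges, and the simple differences of this probe set lay between -0.07 and -0.02. Of the 3 Esrrb probe sets, 1422986_at had the largest difference, -0.35 (interval -0.72 to 0.01) for WY14643 in control hearts, with an adjusted p by limma of 0.745. Without treated control replicate 2, whose signal of 43.5 was the lowest of its group, it was -0.19. After removal of group means, pairs of the 3 Esrrb probe sets correlated at r between -0.09 and 0.35.

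Nrf1 encodes nuclear respiratory factor 1. Its brightest probe set, 1434627_at, had a mean signal of 171.8 ± 25.4 in treated del337 hearts, 157.3 ± 27.7 in untreated del337TR hearts, 192.6 ± 28.4 in treated control hearts and 168.6 ± 34.6 in untreated control hearts (SD, n = 7 each). Its WY14643 effects were 0.13 (interval -0.16 to 0.43) in del337 hearts and 0.21 (interval -0.09 to 0.50) in control hearts, or 0.05 without untreated del337TR replicate 7 and 0.12 without untreated control replicate 3. Another probe set, 1424787_a_at, had the lowest unadjusted p of the members for WY14643. It gave 145.4, 162.8 and 190.6 in treated del337 hearts, against 84.7, 121.3 and 177.8 in untreated del337TR hearts, and 7 of 7 treated arrays lay above the untreated median. The difference was 0.41 (interval 0.12 to 0.71) with an unadjusted p of 0.00747 and an adjusted p by limma of 0.767. In control hearts the same probe set gave 0.20 (interval -0.10 to 0.49), and over both strains 0.31 (interval 0.10 to 0.51) with an adjusted p by limma of 0.513. Its 4 probe sets gave correlations between -0.15 and 0.31 with one another, and 1420978_at lay below the lower quartile of the array on 26 of 28 arrays.

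Gabpa, the subunit of GABP that binds DNA, and Tfam were the steadiest members by their brightest probe sets. The within-group SD on the log2 scale was 0.12 for Gabpa 1450664_at and 0.13 for Tfam 1448224_at. These were percentiles 1.8 and 2.7 among all probe sets, which were not matched for signal level. The dimmer Gabpa 1450665_at and Tfam 1456215_at were at percentiles 7.2 and 13.6. Gabpa 1450664_at gave 581.1, 611.7 and 714.9 in treated del337 hearts, against 633.5, 704.3 and 826.2 in untreated del337TR hearts. The WY14643 effect there was -0.18 (interval -0.34 to -0.02) with an unadjusted p of 0.0322 and an adjusted p by limma of 0.844. The second probe set, 1450665_at, designed on the same source sequence, gave 0.05 (interval -0.14 to 0.25) in that comparison. In control hearts the WY14643 effects were -0.08 for 1450664_at and -0.17 for 1450665_at.

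Tfam 1448224_at averaged 855.9 ± 47.8 in treated del337 hearts, 865.6 ± 68.8 in untreated del337TR hearts, 929.9 ± 101.9 in treated control hearts and 898.3 ± 78.9 in untreated control hearts (SD, n = 7 each). No treated del337 array exceeded the treated control median, yet the difference was only -0.11 (interval -0.28 to 0.05). The WY14643 effects on Tfam were -0.01 (interval -0.18 to 0.15) in del337 hearts and 0.05 (interval -0.12 to 0.21) in control hearts. Over the 4 simple comparisons the intervals of this probe set lay within -0.28 and 0.21 on the log2 scale. The dimmer probe set 1456215_at gave 0.10 (interval -0.13 to 0.33) between the treated groups and 0.05 (interval -0.18 to 0.28) between the untreated groups, the opposite sign to 1448224_at in both.

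**Figure D3:**
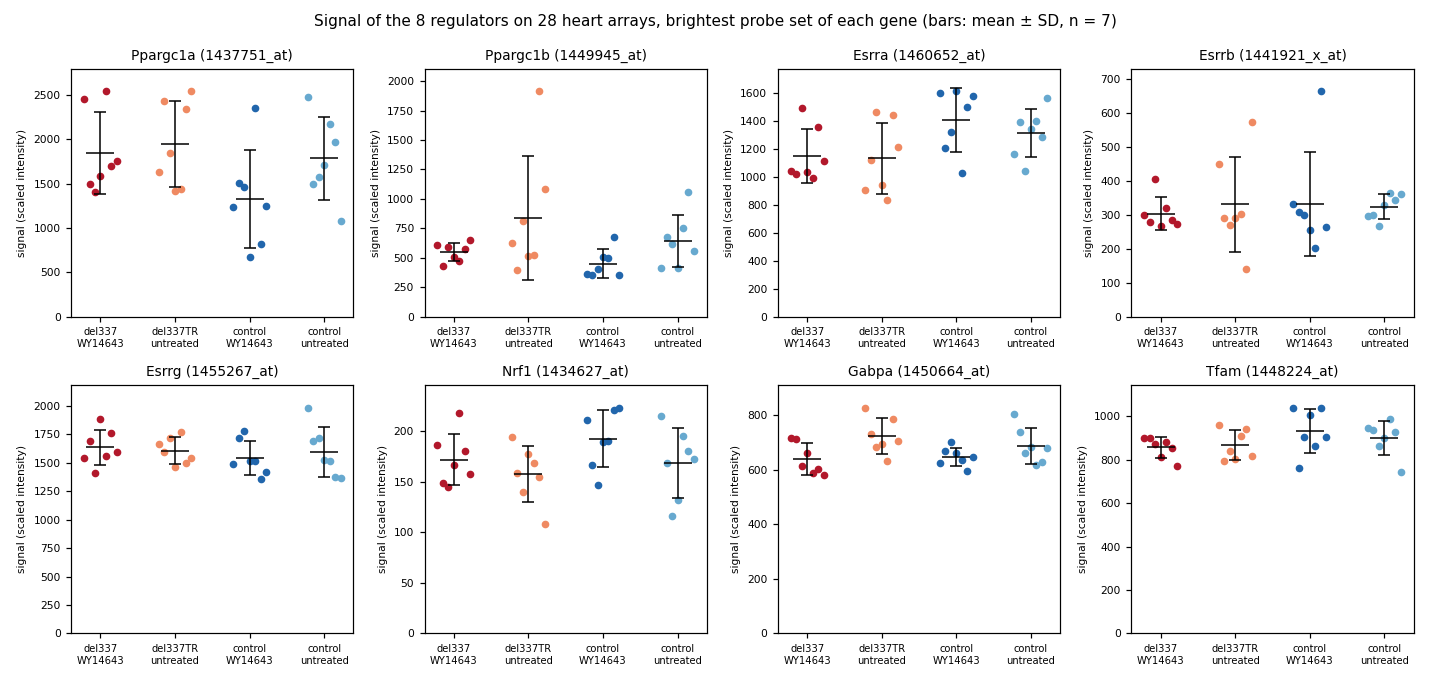
Signal (scaled intensity, vertical axis from 0) of the brightest probe set of each of the 8 genes on the 28 arrays, by group; bars give the mean and SD of 7 arrays. Ppargc1a has its lowest mean in treated control hearts, Esrra has lower means in both del337 groups, and the signals of Esrrg, Gabpa and Tfam stay within narrow ranges; groups overlap in every panel.

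Genes around these regulators were described through 4 lists written from general knowledge, each gene by its brightest probe set. The background of all probe sets given beside each list was not matched to it for signal level. Of 25 listed target genes of PGC-1 and the estrogen-related receptors 21 were measured, and 0 were called in any comparison. WY14643 was accompanied in control hearts by differences above 0 for 21 of 21 targets, with a median of 0.13, where 44.6% of all probe sets lay above 0 with a median of -0.03; with quantile normalization 11 of 21 lay above 0 and the median was 0.03. In del337 hearts 18 of 21 lay above 0 with a median of 0.06, against 53.1% of all probe sets with a median of 0.02, and with quantile normalization 15 of 21 did. Unadjusted p values under 0.05 were found for 2 of the 21 in control hearts, against 6.75% of all probe sets, and for 0 in del337 hearts, against 5.78%. Idh3a, a catalytic subunit of the citric acid cycle enzyme isocitrate dehydrogenase 3, averaged 8400.3 ± 972.8 in treated control hearts and 7114.7 ± 762.1 in untreated control hearts (SD, n = 7 each), a log2 difference of 0.24 with an adjusted p by limma of 0.698. Between treated del337 and treated control hearts 7 of the 21 targets lay above 0, against 55.6% of all probe sets. The median was -0.03, against 0.04 over all and 0.02 over all with dim probe sets filtered out. The targets with the lowest p values by limma there were Ucp3, a mitochondrial carrier induced by fatty acids, and Cpt2, which acts in the import of fatty acids into mitochondria. Their differences were -0.87 and -0.34, both with an adjusted p by limma of 0.428. Ucp3 averaged 565.8 ± 210.5 in treated del337 hearts and 1063.8 ± 451.9 in treated control hearts.

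The list of nuclear genes for the expression and upkeep of mitochondrial DNA held 20 genes, all measured, and 0 were called. Between treated del337 and treated control hearts 1 of 20 lay above 0, against 55.6% of all probe sets, and the median was -0.14, against 0.04 over all; 5 of the 20 had an unadjusted p under 0.05, all below 0, against 8.86% of all probe sets, in either direction and 3.61% below 0. With quantile normalization 2 of 20 lay above 0 and the median was -0.15, and with arrays centred on their medians 1 of 20 did and the median was -0.22. Polg2, the accessory subunit of the mitochondrial DNA polymerase, averaged 130.7 ± 27.0 in treated del337 hearts and 169.3 ± 15.1 in treated control hearts, a difference of -0.40 with an adjusted p by limma of 0.422. Ssbp1, the mitochondrial single-stranded DNA binding protein, differed by -0.29 with an adjusted p by limma of 0.428. Without WY14643, 7 of the 20 lay above 0, against 47.8% of all probe sets, with a median of -0.06, against -0.01 over all.

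Of 30 listed partners, upstream kinases and antagonists of PGC-1, 28 were measured and 0 were called. Between treated del337 and treated control hearts 12 of 28 lay above 0, against 55.6% of all probe sets. The median was -0.01, against 0.04 over all and 0.02 over all with dim probe sets filtered out. An unadjusted p under 0.05 was found for 7 of the 28, against 8.86% of all probe sets; 3 of the 7 were above 0, against 5.25% of all, and 4 below, against 3.61%. Lpin1, which encodes lipin 1, a phosphatidate phosphatase that also acts as a coactivator with PGC-1alpha, averaged 806.1 ± 170.4 in treated del337 hearts and 1386.0 ± 421.3 in treated control hearts. Its difference was -0.75 with an adjusted p by limma of 0.403. Prkag2, a regulatory subunit of the AMP-activated kinase, averaged 632.4 ± 223.0 and 355.0 ± 154.2 in the same groups, a difference of 0.89 with an adjusted p by limma of 0.403. Ppard, the PPARdelta receptor, differed by -0.67, again with an adjusted p by limma of 0.403. For WY14643 in del337 hearts the lowest p values of the list were those of Kat2a, an acetyltransferase, at -0.42 and of Ppara, the receptor of WY14643, at -0.49, with adjusted p values by limma of 0.767 and 0.783.

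Of 20 listed genes of mitochondrial fusion, fission and turnover 17 were measured and 0 were called. WY14643 in control hearts was accompanied by 16 of 17 differences above 0, against 44.6% of all probe sets, with a median of 0.07, against -0.03 over all, and by 9 of 17 with quantile normalization. Between treated del337 and treated control hearts 4 of 17 lay above 0, against 55.6% of all probe sets. The median was -0.08, against 0.04 over all and 0.02 over all with dim probe sets filtered out. Neither background was matched to the list for signal level. Oma1, an inner membrane protease, averaged 628.0 ± 70.5 in treated del337 hearts and 711.2 ± 34.0 in treated control hearts, a difference of -0.19 with an adjusted p by limma of 0.505.

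**Figure D4:**
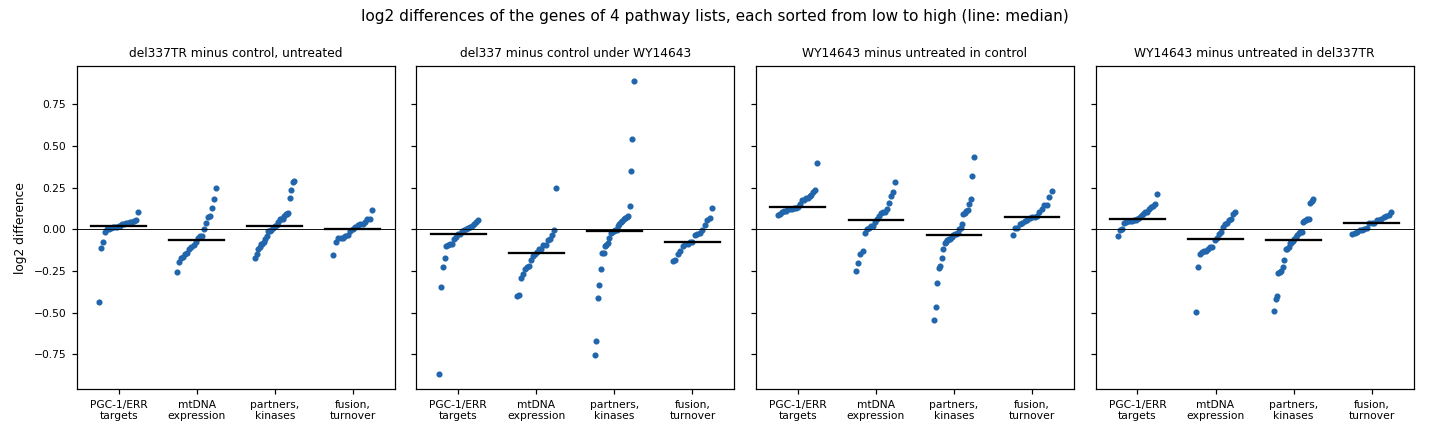
log2 differences (vertical axis) of the measured genes of the 4 lists, 1 point per gene sorted from low to high, in the 4 simple comparisons; horizontal bars give the list medians. Medians lie between -0.14 and 0.13, and no gene passed an adjusted p of 0.05.

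Whether the regulators varied together from heart to heart was examined over the 28 arrays with group means removed, each gene by its brightest probe set. Of the 28 pairs of members 0 passed an adjusted permutation p of 0.05 (100000 resamples within groups). Esrra and Esrrg had r = -0.392 and rho = -0.407, with permutation p values of 0.0345 and 0.0354 and an adjusted p of 0.423 for r. Leaving out the 2 arrays farthest from the Esrra median gave r = -0.389, and r was negative within each group, between -0.637 and -0.240, but 0.026 once arrays were centred on their medians. Ppargc1a and Esrra had r = -0.269, with an adjusted permutation p of 0.693, and the sign differed between groups, with r = 0.694 in untreated del337TR hearts and -0.827 in treated control hearts.

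Members were also set against the mean of each list, a family of 32 relations of which 0 passed an adjusted permutation p of 0.05 for r. With arrays centred on their medians, which subtracts the same value from both sides of a relation on each array, 9 of the 32 passed, 3 each of Esrrg and Gabpa, 2 of Tfam and 1 of Esrra, all with r above 0; with quantile normalization 0 passed. Gabpa and the list for mitochondrial DNA expression had r = 0.487 and rho = 0.599, with permutation p values of 0.0089 and 0.00173 and adjusted values of 0.285 and 0.0554. The relation had r = 0.867 in treated del337 hearts, 0.480 in untreated del337TR hearts, 0.117 in treated control hearts and 0.374 in untreated control hearts, and r = 0.548 without the 2 arrays farthest from the Gabpa median. With arrays centred on their medians it was 0.734, Esrrg with the list for fusion, fission and turnover had 0.736 in place of 0.379, and Gabpa with the list of partners had 0.720 in place of 0.413, each with an adjusted permutation p of 0.00064. Ppargc1a and the mean of the targets of PGC-1 and the estrogen-related receptors had r = -0.382 and rho = -0.371, with permutation p values of 0.043 and 0.0638 and adjusted values of 0.344 and 0.510. Without the 2 arrays farthest from the Ppargc1a median r was -0.369, and with arrays centred on their medians it was -0.093. Within groups r was -0.682 in treated del337 hearts, 0.053 in untreated del337TR hearts, -0.595 in treated control hearts and -0.214 in untreated control hearts.

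The genes whose signals followed each regulator most closely were found by Pearson r over the 28 arrays with group means removed, among probe sets brighter than the median; these are the highest of very many values and are given as a description with no test. Ppargc1a was followed most closely by Tmem100 (r = 0.787), Slc8a1 (r = 0.782), the cardiac sodium-calcium exchanger, and H2bc21 (r = 0.768). Ppargc1b was followed by Cdc42ep3 (r = 0.821), Tm4sf1 (r = 0.814) and Ppp1r3b (r = 0.810), a subunit that directs a phosphatase to glycogen. The closest genes were Itga7, an integrin of muscle, for Esrra (r = 0.771), Kat2b, an acetyltransferase, for Esrrg (r = 0.833) and Ccnl2 for Esrrb (r = 0.691). They were Fnip1, a folliculin partner, for Nrf1 (r = 0.794), Caap1 for Gabpa (r = 0.672) and Aldh3b2 for Tfam (r = 0.799). No member was among the 3 closest genes of another member.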

How the data were processed

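The deposited table gave each probe set 1 linear intensity on each of the 28 arrays. The submitters' processing notes name RMA, with no version, but the deposited intensity values were not on a log scale and their mean after trimming 2% at each end was 250 on every array, so they were treated as globally scaled signals. The file held no detection call, and the software that made it is not given in the sources used here. Of 45101 probe sets, 64 controls named AFFX were left out. The probe annotation gave 34945 of the others 1 gene symbol, 932 several and 9160 none. Genes were named only from probe sets with 1 symbol, and the brightest probe set stood for a gene where 1 was needed.

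Values were floored at 0.1 (3 were at 0) and log2 transformed. A model with 4 group means and no covariate (limma 3.58.1, R 4.3.3, 24 residual degrees of freedom) used every array, and 7 contrasts were tested two-sided with Benjamini-Hochberg adjustment over 45037 probe sets at 0.05. Errors of signals are SDs, intervals are 95% confidence intervals of log2 differences, and only 7 arrays a group limit the precision. The design had allowed for log2 values from RMA. The model was also tested on simulated data. The members, the lists and the tests were chosen with earlier results of these data known. Named genes were all member probe sets, up to 3 genes with the smallest p per list and comparison, and the 3 genes most alike each member. Alternatives covered an added 16 before log2, the 40th percentile as a filter, quantile normalization, median centring, array weights, trend with robust variance, only the groups compared, a replicate block, covariates (sex, atrial score, actin ratio, first principal component) and leaving out each array; leaving out the least typical array of each group, averaging the probe sets of a gene, and rescaled arrays in the relations with lists were added after seeing the data.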

Additional observations from a re-analysis of the deposited data

Results flagged for a closer look

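In 5 of the 88 groups of 7 arrays examined (22 probe sets in 4 groups), 1 array stood apart by Dixon's ratio, the gap to the nearest other array over the whole range, taken beyond its 95% critical value for 7 arrays. The ratios were taken on log2 signals, while the signals printed here are linear. Chance gives about 1 in 20. Esrrb 1422986_at had its lowest signal, 43.5, in replicate 2 of the treated controls (ratio 0.699). Esrrb 1441921_x_at had its highest signal, 664.5, in replicate 6 of the treated controls (ratio 0.583) and a high of 405.3 in replicate 3 of the treated del337 hearts (ratio 0.573). Replicate 3 of the untreated controls was lowest for 2 probe sets of Esrrg, at 149.1 for 1421747_at (ratio 0.584) and at 7 for 1457896_at (ratio 0.649). None of the 22 probe sets passed an adjusted p of 0.05 by limma for the difference of the WY14643 effects between the strains.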

How the results depend on the processing

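The counts of called member probe sets and of called list genes were 0 in every fit that gave them. This held with each of the 28 arrays left out. Of the 14 alternatives, averaging the probe sets of a gene gave log2 differences and no such counts. Fitting only the groups compared covered only the simple comparisons. The lowest adjusted p was 0.283 for a member and 0.177 for a list gene, so the differences of Ppargc1a and Esrra were never calls in these fits. The count of member pairs whose correlation passed the test was 1 with arrays centred on their medians, Esrrg with Gabpa (r = 0.677, adjusted permutation p 0.0098), and 0 with quantile normalization or without the 2 arrays farthest from the median; the cause was not tested. Of the 32 relations of members with lists, 9 passed with arrays centred on their medians (lowest adjusted permutation p 0.00064), and 0 with quantile normalization (lowest 0.0698); the cause was not tested. Of the 56 log2 differences (8 genes in 7 contrasts, by the brightest probe set), 27 kept their sign under every alternative run and 29 changed it under at least 1, all 29 with a reported value of at most 0.16 in size; the cause was not tested. Without the least typical array of each group the changed values were Ppargc1a -0.051, Esrrg -0.0081 and Nrf1 0.0050 between the untreated strains, Esrrb 0.016 for WY14643 in control, Ppargc1a 0.0043 and Esrrb 0.15 for WY14643 in del337, Gabpa 0.00095 between the treated strains and Esrrb 0.084 for WY14643 over both strains. With the mean of the probe sets of each gene they were Esrrg -0.12 and Gabpa -0.052 between the untreated strains, Tfam -0.0037 for WY14643 in control, Esrra -0.065 for WY14643 in del337, Esrrb 0.075, Nrf1 0.093 and Gabpa 0.011 between the treated strains, Nrf1 0.14 and Gabpa 0.063 for the difference of effects, Esrrb 0.011, Nrf1 0.025 and Gabpa -0.021 for strain over both treatments and Esrra -0.0076, Esrrg 0.065 and Tfam -0.0059 for WY14643 over both strains. With arrays centred on their medians they were Esrrb 0.0086 and Esrrg 0.016 for WY14643 in control, Esrrg -0.015 for WY14643 in del337, Ppargc1b -0.049, Esrrb -0.069 and Esrrg -0.031 for the difference of effects, Gabpa -0.0059 for strain over both treatments and Esrrg 0.00068 for WY14643 over both strains. With the actin ratio as a covariate they were Esrrg 0.00078 for WY14643 in control, Esrrg -0.00056 for WY14643 in del337, Esrra 0.012, Esrrg -0.0013 and Nrf1 0.023 for the difference of effects and Esrrg 0.00011 for WY14643 over both strains. The others were Tfam 0.0063 for WY14643 in del337 with array weights, Esrrg -0.0098 for WY14643 in del337 with the atrial score and Esrrb -0.0089 for the difference of effects with quantile normalization. With 1 array left out at a time, the values that changed sign ranged over Esrra -0.030 to 0.11, Esrrb -0.21 to 0.13, Esrrg -0.012 to 0.057 and Tfam -0.034 to 0.011 for WY14643 in del337, Esrra -0.13 to 0.012, Esrrb -0.16 to 0.21, Nrf1 -0.16 to 0.015 and Ppargc1b -0.10 to 0.28 for the difference of effects, Esrrb -0.24 to 0.050 and Esrrg -0.080 to 0.0091 for WY14643 in control, Esrrb -0.13 to 0.038, Esrrg -0.029 to 0.016 and Tfam -0.0060 to 0.040 for WY14643 over both strains, Esrrb -0.15 to 0.14 and Gabpa -0.049 to 0.00088 between the treated strains, Esrrb -0.13 to 0.035 for strain over both treatments and Esrrb -0.22 to 0.11 and Esrrg -0.018 to 0.071 between the untreated strains.

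By the rule that every pair must correlate above 0.1, the replicate numbers were not taken to pair the arrays. Same-numbered arrays of 2 groups correlated in their deviations from the group means at -0.122 to 0.190, with at most 2 of 7 pairs over 0.1. Within a strain all 7 were above 0: treated with untreated del337 arrays had 0.037 to 0.117, with a mean of 0.065 against -0.011 for other numbers and 5 of 7 best matched to their own number, and treated with untreated control arrays had 0.010 to 0.124, with a mean of 0.071 against -0.011 and 3 of 7. This is a hint from the data, not from the design. With the replicate block the Ppargc1a difference between the treated groups was 0.55 with an adjusted p by limma of 0.478, and the block gave 0 called member probe sets.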

Other observations

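In each of the 4 groups the array least like the others, by its mean correlation with the other 6, was the one numbered replicate 7, with means of 0.940 in treated del337 hearts, 0.940 in untreated del337TR hearts, 0.931 in treated control hearts and 0.941 in untreated control hearts. The labels give no meaning to the number. Replicate 7 of the treated controls also had the highest actin ratio of the series, 1.82. Without these 4 arrays the Ppargc1a difference between treated del337 and treated control hearts was 0.56, and that between untreated del337TR and untreated control hearts was -0.051.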
